A study of Mus musculus with 2 samples.

Results

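The nuclear genes of oxidative phosphorylation were examined in mouse spleen by RNA sequencing. They were taken as the rows of the deposited gene table whose symbol begins with Nduf and a subunit letter and number, Cox4 to Cox8, Uqcr or Atp5, or is Sdha, Sdhb, Sdhc or Sdhd, which gave 85 of 22216 rows. One row among them, Cox4nb, and the rows Atp5s and Atp5sl match by name only and encode no subunit of a respiratory complex, so 82 rows remained for the complexes. The series compares spleen of mice labelled NOD.g7 with spleen of mice labelled NOD.L7, with 1 library per genotype, each made from the pooled spleens of 3 mice. NOD mice, or non-obese diabetic mice, are inbred and prone to autoimmune diabetes. The labels used here do not spell out g7 or L7 and give no age, sex or treatment.

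Oxidative phosphorylation takes place in the inner mitochondrial membrane. Complex I (NADH dehydrogenase) and complex II (succinate dehydrogenase) pass electrons to coenzyme Q, complex III (the cytochrome bc1 complex) passes them to cytochrome c, and complex IV (cytochrome c oxidase) hands them to oxygen. Complexes I, III and IV pump protons, and complex V (ATP synthase) uses the proton gradient to make ATP. A few subunits are encoded by mitochondrial DNA and most, including those described here, by nuclear genes. In lymphocytes this machinery serves resting cells as well as activated ones, while mature red cells lose their mitochondria.

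The 2 libraries held nearly the same amounts of these transcripts. The level is given as RPKM, reads per kilobase of gene scaled to the mapped total of the library, a scale on which genes can be compared per length. Of the 85 rows, 79 reached an RPKM of 1 in either library and were kept, and the remaining 6 are named with their complexes below. Differences are given as the log2 ratio, the log2 of RPKM plus 1 in NOD.L7 over RPKM plus 1 in NOD.g7. Adding 1 shrinks the ratio of weakly expressed genes. None of the 79 reached an absolute log2 ratio of 1, against 0.709% of the 11141 genes kept in the whole table and 0.386% of the 6222 genes with a mean RPKM of at least 10.

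At the lower limit of 0.25, 3 of the 79 stood out, Cox6a2, Ndufb4 and Cox7a1, against 13.6% of all kept genes. Of these, 2 were higher in NOD.L7, where 8.82% of all kept genes passed upward, and 1 was lower, where 4.74% passed downward. All 3 had a mean RPKM under 10. Among the 68 members with a mean RPKM of at least 10, 0 passed the limit of 0.25, against 7.22% of all genes over that cut. The cut did not match the sets for level. In NOD.g7 the median RPKM was 56.4 for these 68 members and 22.8 for all genes over the cut. The plain ratio of the RPKM values lay between 0.9 and 1.1 for 71 of the 79.

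The median log2 ratio of the 79 was -0.01, beside 0.02 for all kept genes. A total of 35 were higher in NOD.L7 and 44 lower, so 44.3% were higher, against 56.2% of all kept genes. The counts moved with scaling. They were 27 to 52 after centring on the median of all genes and 23 to 56 after a TMM factor, a trimmed-mean scaling between the libraries, which put 34.2% and 29.1% of the members above 0. The same scalings put 49.996% and 48.6% of all kept genes above 0. Each scaling shifts the members and all genes together, so that the members' share stayed the smaller adds nothing to the first comparison. At a mean RPKM of at least 10, 29 of the 68 members were higher, beside 3347 of all 6222 genes. With 1 library per genotype the spread between mice is not known, so no p-value can be given and the differences describe these 2 pools. In bulk spleen RNA, fewer cells of a type and less RNA per cell cannot be told apart.

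**Figure D1:**
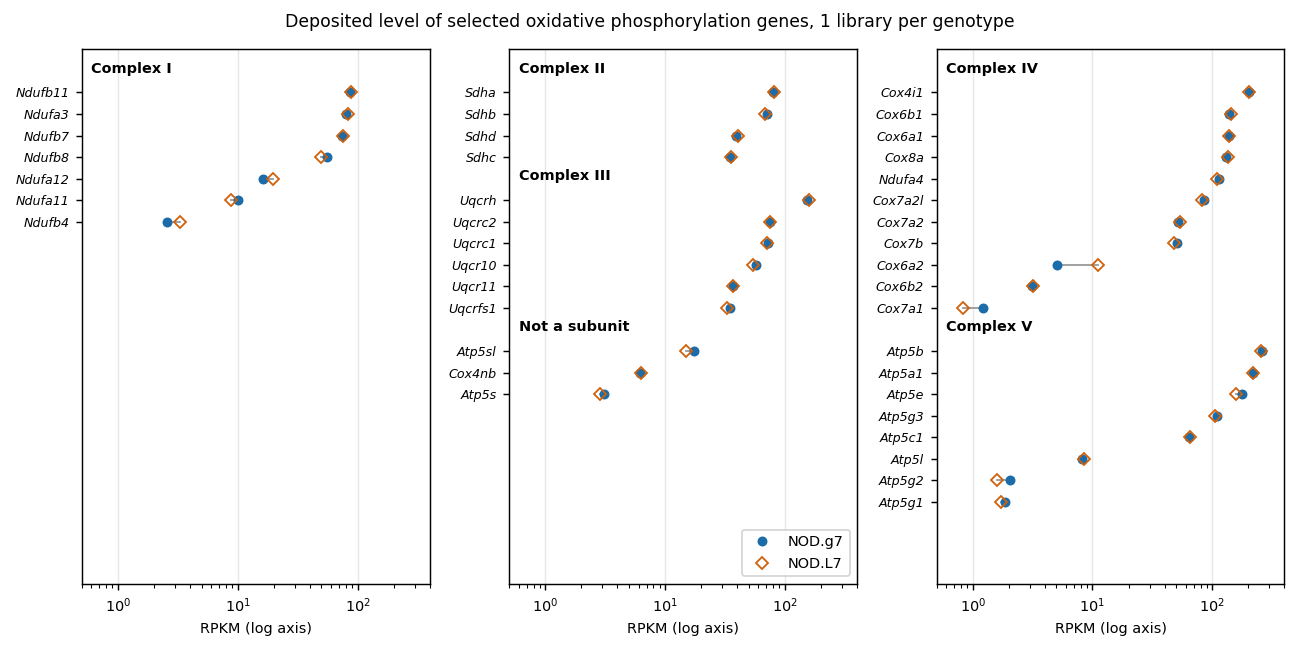
Deposited RPKM (log axis) of the kept genes chosen in each complex for the highest and lowest levels and log2 ratios, with the isoform pairs, ordered by mean level, with NOD.g7 as filled circles and NOD.L7 as open diamonds. The symbols of most genes overlap, while Cox6a2 is at 5.02 and 11.0.

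**Figure D2:**
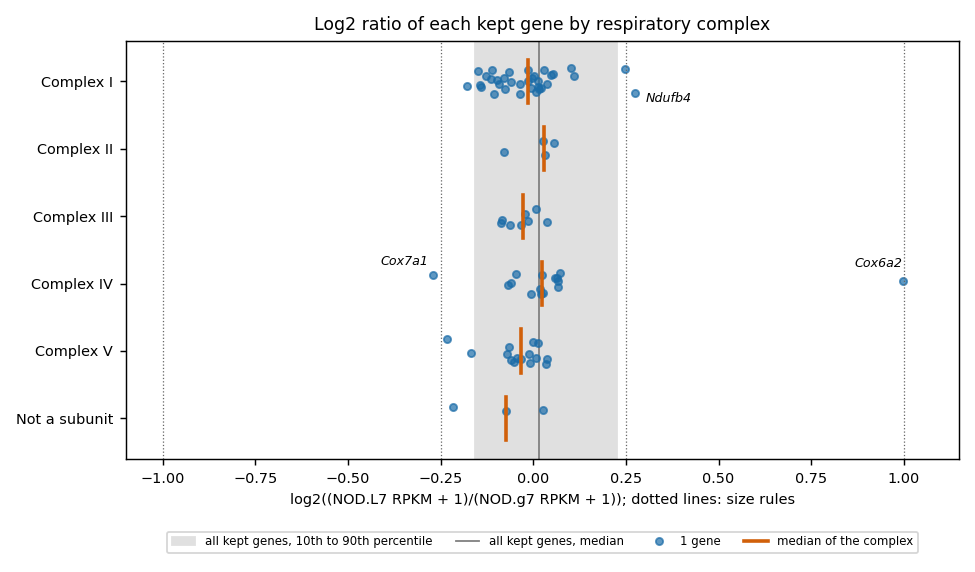
Log2 ratio of each kept gene (1 point per gene) by complex, with the median of each complex as an orange bar and the range from the 10th to the 90th percentile of all 11141 kept genes in grey. The points lie between -0.27 and 0.27 except for Cox6a2 at 0.998.

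Many promoters of this gene group are known to carry sites for the transcription factors NRF1, GABP (an ETS family factor) and YY1. RefSeq promoter sequences (GRCm38.p6) were matched for 69 of the 85 genes, and the 250 bases before the start were searched on both strands. The NRF1 letters (GCGCA, any base, then GCGC) were present in 13 of the 69 (18.8%), against 10.1% of 8851 kept genes with a promoter and 4.23% of all 27025. The GABP letters CCGGAAG were present in 12 (17.4%), a share close to the 16.9% of kept genes. The YY1 letters AANATGGCG were present in 4 (5.80%), against 2.75% of kept genes. Among these 4 was Atp5sl, which encodes no subunit. The 69 also include members that were not kept, such as Cox7b2 and Ndufs5. The motifs may share letters, in which case each was counted, and a match describes the letters and not a bound site. At least 1 of the 3 motifs was present in 25 of the 69 members (36.2%), against 26.9% of kept genes, so most members held none of them in this window.

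The 4 members with letters of at least 2 of these motifs are printed as the members with the most kinds of these letters, not as typical promoters of the group. Capitals mark the motif letters on either strand. They lie before the start of Cox6a1 (chr5:115348959-115349208), Sdhd (chr9:50603850-50604099), Atp5h (chr11:115419920-115420169) and Atp5j (chr16:84834977-84835226), all on the minus strand of GRCm38.p6 and shown 5′ to 3′ in the direction of the gene. Atp5j has a further annotated start whose upstream bases hold none of the letters.
Cox6a1: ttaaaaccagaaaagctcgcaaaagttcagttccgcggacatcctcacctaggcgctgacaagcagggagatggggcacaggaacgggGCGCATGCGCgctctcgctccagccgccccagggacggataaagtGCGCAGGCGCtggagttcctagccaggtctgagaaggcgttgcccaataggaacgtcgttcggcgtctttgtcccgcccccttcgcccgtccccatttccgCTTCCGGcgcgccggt
Sdhd: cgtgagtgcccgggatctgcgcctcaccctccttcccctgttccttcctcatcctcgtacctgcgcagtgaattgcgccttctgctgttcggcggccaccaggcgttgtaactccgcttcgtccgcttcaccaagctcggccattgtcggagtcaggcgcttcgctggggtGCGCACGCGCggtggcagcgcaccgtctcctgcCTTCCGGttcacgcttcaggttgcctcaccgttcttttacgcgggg
Atp5h: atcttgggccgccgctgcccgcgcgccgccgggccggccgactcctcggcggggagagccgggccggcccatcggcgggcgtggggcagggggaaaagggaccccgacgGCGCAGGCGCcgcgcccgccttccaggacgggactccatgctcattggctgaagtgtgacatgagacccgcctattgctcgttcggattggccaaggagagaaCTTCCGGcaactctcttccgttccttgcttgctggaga
Atp5j: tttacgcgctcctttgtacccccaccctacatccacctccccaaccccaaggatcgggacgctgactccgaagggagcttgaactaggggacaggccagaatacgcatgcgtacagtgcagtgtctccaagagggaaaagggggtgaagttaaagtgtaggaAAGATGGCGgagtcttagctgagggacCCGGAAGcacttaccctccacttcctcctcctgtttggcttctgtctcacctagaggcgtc
The Cox6a1 promoter holds 2 NRF1 matches and 1 GABP match, Sdhd and Atp5h hold 1 of each, and Atp5j holds 1 GABP and 1 YY1 match. The genes behind these promoters had log2 ratios of 0.03 for Cox6a1, 0.06 for Sdhd, -0.03 for Atp5h and -0.07 for Atp5j.

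Complex I was represented by 35 rows, of which 34 were kept. Their summed RPKM was 1364 (NOD.g7) and 1344 (NOD.L7), the median log2 ratio was -0.01, and 14 were higher and 20 lower in NOD.L7. The 7 core subunits, which carry the flavin and the iron-sulphur clusters from NADH to coenzyme Q had a median log2 ratio of -0.01 and a range from -0.13 to 0.10. Ndufs1, the largest iron-sulphur subunit, had the lowest level of them, at 27.04 (NOD.g7) and 24.7 (NOD.L7). The flavin-binding subunit Ndufv1 was at 31.2 and 28.9, and its partner Ndufv2 at 30.6 and 33.0, so these neighbours in the enzyme differed in opposite directions by small amounts.

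The 27 kept accessory subunits, which surround the core and are needed for its assembly and stability, covered a wider range. Ndufb11, a membrane-arm subunit encoded on chromosome X, was the highest gene of the complex at 86.6 and 88.4. Ndufa3 followed at 79.6 and 82.5, and Ndufb7 at 74.2 and 75.1. All of these had a plain fold within 0.9 to 1.1. Near the low end, above only Ndufb4, stood Ndufa11, a membrane-arm subunit at 10.03 and 8.75, with the lowest log2 ratio of the complex (-0.18). Its plain fold of 0.87 had a 95% counting interval of 0.73 to 1.03, which includes 1.

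The counting interval is an exact binomial (Clopper-Pearson) interval for the fold. It was computed from the number of fragments estimated from each RPKM and scaled by the depth of each library. It leaves out all variation between mice and between library preparations.

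The accessory subunit Ndufa12, which joins the matrix arm late in assembly, was at 16.3 (NOD.g7) and 19.5 (NOD.L7). Its log2 ratio of 0.249 lay just under the limit, and its fold was 1.20 (counting interval 1.099 to 1.31). Ndufb4, another membrane-arm subunit, was at 2.55 and 3.29, with a log2 ratio of 0.27 and a fold of 1.29 (1.02 to 1.64). Ndufb8 had the second lowest log2 ratio of the complex (-0.15), at 55.4 and 49.9. None of these differences exceeded 1.3-fold.

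The row of Ndufs5 cannot be read as a level of that gene. Ndufs5 encodes an accessory subunit on the intermembrane-space side of complex I, and its RPKM was listed at 0.329 (NOD.g7) and 0.0331 (NOD.L7). The deposited row spans 25 bases of chromosome 4 (123395405 to 123395429, mm9), whereas the gene spans 5493 bases in GENCODE M21 on GRCm38 and its principal transcript has 525 bases. Over 25 bases these values correspond to 75 and 10 sequenced bases. It was the only complex I row under an RPKM of 1 in both libraries.

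Complex II, which also works in the citric acid cycle, has no subunit from mitochondrial DNA, so its 4 genes give the whole enzyme. Sdha, the flavoprotein that oxidises succinate, was at 79.7 (NOD.g7) and 81.2 (NOD.L7). Sdhb, the iron-sulphur subunit, was at 71.4 and 67.6. The membrane anchors were lower than the catalytic subunits in both libraries, with Sdhc at 34.7 and 35.5 and Sdhd at 39.4 and 41.0. The order of the 4 genes was the same in both libraries, and their summed RPKM was 225.3 in each. The log2 ratios ran from -0.08 (Sdhb) to 0.06 (Sdhd).

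All 8 rows of complex III were kept, with a median log2 ratio of -0.03 and summed levels of 525.9 and 520.3. Uqcrh, the small hinge protein next to cytochrome c1, was by far the highest, at 153.7 (NOD.g7) and 157.7 (NOD.L7). The large core proteins Uqcrc2 and Uqcrc1 were at 75.3 and 75.7 and at 72.7 and 71.0. Uqcrfs1, the Rieske iron-sulphur protein that accepts electrons from coenzyme Q, was the lowest of the 8, at 34.9 and 32.7, with the lowest log2 ratio among them (-0.09). Uqcr10 was at 57.2 and 54.0 (log2 ratio -0.08), and Uqcr11 at 37.1 and 36.5. The catalytic subunit Cyc1 (cytochrome c1), whose symbol falls outside the pattern, was at 60.7 and 56.0, and its log2 ratio of -0.11 was lower than that of each of the 8.

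Complex IV held the 1 large difference of the group. Of its 20 rows, 12 are constitutive and 8 are isoforms known from particular tissues. The 12 constitutive genes, all kept, had log2 ratios from -0.07 to 0.07 and summed levels of 1108 and 1120. Here Ndufa4 is counted in complex IV, where the protein is now placed, and Cox7a2l, which joins complexes III and IV into supercomplexes, is counted with it.

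Cox4i1, the ubiquitous form of the regulatory subunit 4, was the highest, at 204.2 (NOD.g7) and 203.4 (NOD.L7). Cox6b1, a subunit at the dimer interface, was at 136.7 and 143.9 and had the highest log2 ratio of the constitutive genes (0.07). Cox6a1 was at 136.6 and 139.1, and Cox8a, the liver-type form of the smallest subunit, at 129.7 and 135.8. These are the ubiquitous forms, and each was within 1.1-fold between the libraries. Ndufa4 was at 113.4 and 108.7, Cox7a2l at 85.3 and 82.6, Cox7a2 at 51.8 and 54.0 and Cox7b at 50.6 and 48.2, the last with the lowest log2 ratio of the constitutive genes (-0.07).

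Against this background the tissue isoforms were low. The lung-enriched, hypoxia-responsive isoform Cox4i2 was listed at 0 (NOD.g7) and 0.102 (NOD.L7). Ndufa4l2, a hypoxia-induced relative of Ndufa4, was at 0.0463 and 0.0175. The testis forms Cox7b2 and Cox8c and the heart and muscle form Cox8b were listed at 0 in both libraries. The testis form Cox6b2 was detected at 3.14 and 3.21. The heart and muscle form Cox7a1 was at 1.21 and 0.832, with a log2 ratio of -0.27, but this rests on about 22 and 20 fragments and the interval of its fold ran from 0.36 to 1.32.

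Cox6a2, the heart and skeletal muscle form of subunit 6a, was at 5.02 (NOD.g7) and 11.0 (NOD.L7). The log2 ratio was 0.998, just short of the limit of 1. The plain fold was 2.20, with a counting interval of 1.82 to 2.65 from about 156 and 453 fragments. It was far below its ubiquitous counterpart Cox6a1 in both libraries. It passed the limit of 1 with a pseudocount of 0.5 or 0.1 in place of 1.

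Other muscle genes were at or near the floor in both libraries, where their ratios carry little information. Of 8 genes of striated muscle and brown fat, 1 reached an RPKM of 1, the troponin gene Tnnt3 at 1.43 and 0.999, and the summed level of the 8 was 2.09 (NOD.g7) and 1.52 (NOD.L7). The actin gene Actc1 and the myosin gene Myh6 were at 0.00788 and 0.00595 and at 0.00729 and 0, and the muscle creatine kinase gene Ckm at 0.384 and 0.306. The actin gene Acta1 was at 0.231 and 0.0693 and the brown fat gene Ucp1 at 0.0267 and 0.0244. In the other direction, the troponin gene Tnnt2 was at 0.00111 and 0.0960, and the brown fat gene Cidea was listed at 0 and at 0.0142. The part of muscle RNA in the Cox6a2 difference was not tested.

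In mouse immune cells Cox6a2 is known as a marker of plasmacytoid dendritic cells, the main producers of type I interferon. A list of 14 further genes of those cells was chosen after the value of Cox6a2 was seen. Of these, 12 were lower and 2 higher in NOD.L7, and the median log2 ratio was -0.12. None passed the limit of 1, which is near the background, since 0.709% of all kept genes passed. At the limit of 0.25, 3 passed, all lower, where 4.74% of all kept genes passed downward. Those were the chemokine receptor gene Ccr9, at 11.3 and 6.34, the lectin gene Cd209d, at 13.3 and 10.8, and Ly6d, which B cells also express, at 134.2 and 106.5. Siglech, a defining receptor of these cells, was at 21.8 and 18.8. The 2 higher genes were Pacsin1, at 11.1 and 11.5, and Tlr7, at 19.4 and 20.3. The B cell markers described below were also lower, with a median log2 ratio of -0.26. The part of plasmacytoid dendritic cells in the Cox6a2 difference was not tested.

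The place of Cox6a2 in the genome bears on how its value is read. In the deposited table it lies on chromosome 7 (135349018 to 135349880, mm9), with 69 bases between it and the end of the integrin gene Itgad. Itgad, a leukocyte integrin alpha chain, stood at 18.8 and 28.7, or 1.53-fold higher in NOD.L7. The next integrin genes, Itgax and Itgam, were 1.46-fold and 1.31-fold higher, at 20.8 and 30.3 and at 21.1 and 27.5. On the other side, 9130023H24Rik was lower, at 3.47 and 2.21, and Armc5 was at 9.84 and 10.3.

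In GENCODE M21 on GRCm38, Cox6a2 is on the minus strand and Itgad on the plus strand, and 4 of the 5 Itgad transcripts overlap 70 of the 680 exonic bases of Cox6a2. Whether the authors' counting used strand is not given in the sources used here. Without strand, reads from Cox6a2 and from the end of Itgad in that stretch cannot be told apart, and the part of Itgad in the difference was not tested. Markers of monocytes and macrophages, which carry these integrins, were also higher in NOD.L7. All 8 matched genes passed the limit of 0.25 upward, where 8.82% of all kept genes passed. Their summed levels were 239.8 and 396.1, with none at 0. Of 8 neutrophil markers, 7 were higher and 1 lower, with a median log2 ratio of 0.32. The part of monocytes, macrophages and neutrophils in the Cox6a2 difference was not tested.

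**Figure D3:**
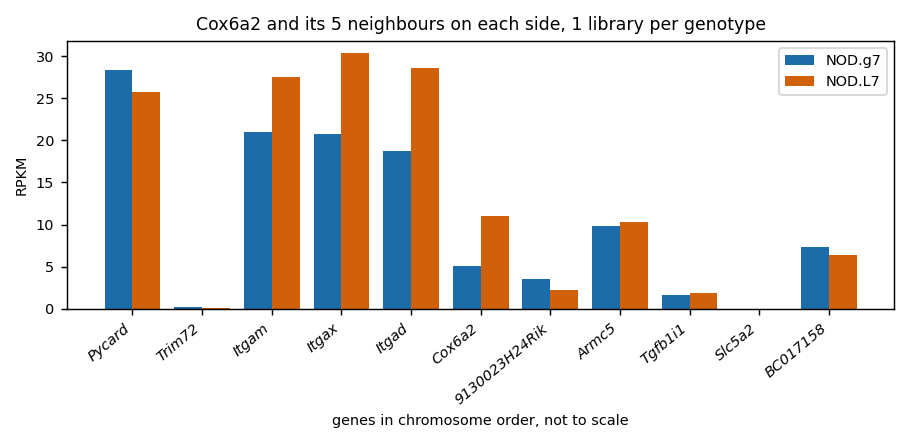
RPKM of Cox6a2 and of the 5 genes on each side of it in chromosome order (not to scale), with 1 bar per library. Itgam, Itgax, Itgad and Cox6a2 are each higher in NOD.L7, and the next gene, 9130023H24Rik, is lower.

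All 15 rows of complex V were kept, with summed levels of 1456 and 1417 and a median log2 ratio of -0.03. Atp5b and Atp5a1, the beta and alpha subunits of the catalytic head, were the highest genes of the whole group. Atp5b was at 262.3 (NOD.g7) and 254.5 (NOD.L7), and Atp5a1 at 219.5 and 220.7. With about 22934 and 29462 fragments, the fold of 0.97 for Atp5b had the counting interval 0.95 to 0.99. The subunits gamma (Atp5c1) and delta (Atp5d) were lower, at 63.8 and 65.4 and at 85.8 and 85.1.

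The epsilon subunit gene Atp5e came next, at 178.1 and 158.4, with a log2 ratio of -0.17 and a fold of 0.89 (counting interval 0.85 to 0.93). Among complex V genes with an RPKM over 10 it differed most. The inhibitor of the ATP synthase, Atpif1, which is not matched by the pattern, was at 37.6 and 33.5 (log2 ratio -0.16).

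The ring through which protons flow is built of subunit c, and Atp5g1, Atp5g2 and Atp5g3 each encode the same mature protein behind different import sequences. Atp5g3 was at 108.8 and 104.9. The deposited values of the other genes were far lower, with Atp5g1 at 1.86 and 1.73 and Atp5g2 at 2.06 and 1.60. The log2 ratio of Atp5g2 was -0.23, on about 41 and 43 fragments, and the interval of its fold ran from 0.50 to 1.25. Another low value was that of Atp5l, subunit g of the membrane part, at 8.25 and 8.49.

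Several members share sequence with other genes, which bears on how their levels are read. For each member the 50-base words of the principal GENCODE M21 transcript were looked up, on both strands, in the transcripts of every other annotated gene, pseudogenes included. At least 50% of the words were shared in 6 members, or 7.06% of the 85, against 4.35% of 10699 kept genes. The share was 100% for Atp5g2 (2 pseudogenes), 84.8% for Atp5l (12 pseudogenes), 66% for Atp5g1 (3 pseudogenes) and 53% for the complex IV subunit gene Cox7c (3 pseudogenes). Cox7c, at 3.55 and 3.77, is otherwise a ubiquitous subunit. These were the 4 members of the 6 with a mean RPKM under 10, and the others, Atp5h and Atp5o, shared 50.5% and 50.3% and had 63.9 and 62.4 and 97.5 and 93.6.

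Of the 67 constitutive subunit genes under 50% shared, 2 had a mean RPKM under 10. Ndufb4 shared 37% of its words with 3 pseudogenes, and Ndufa11 shared 12.5% with 1 pseudogene and another gene. The 29 constitutive genes with no shared word ranged from 15.02 to 168.3 in mean RPKM. Across the 73 constitutive genes, which share the same libraries and differ in length and base composition, Spearman's rho between level and share was -0.21. How reads with several matches were treated is not given in the sources used here. The levels of members with a large share are therefore uncertain whether low or high, including Atp5h and Atp5o, and Uqcrb (43.4%), Ndufs3 (39.7%) and Atp5f1 (38.7%), which share more than Ndufb4. The words were compared between transcripts, so genes that overlap at the same place on the genome also count as sharing. These were not told apart from copies elsewhere. Atp5o, for example, shared words with 3 genes, 1 of them a pseudogene. Whether sharing lowered any of these values was not tested.

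**Figure D4:**
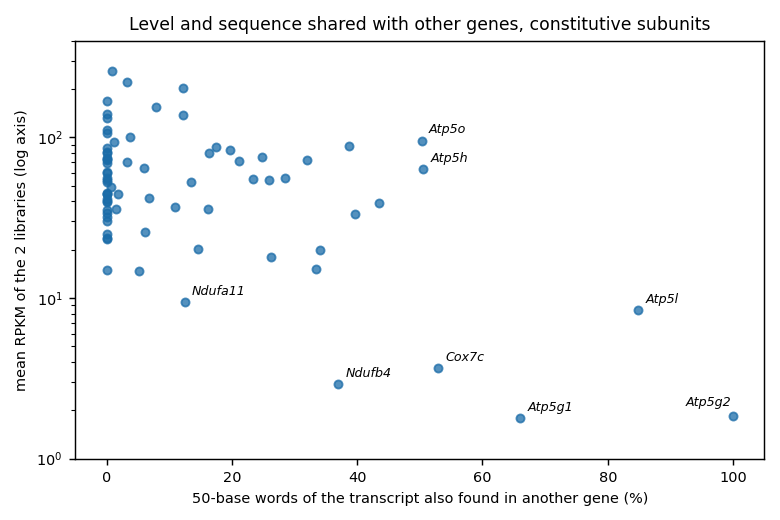
Mean RPKM of the 2 libraries (log axis) against the percentage of 50-base transcript words shared with another gene, 1 point for each of the 73 kept constitutive subunit genes. Atp5g2, Atp5l, Atp5g1 and Cox7c combine a share over 50% with a level under 10, and Atp5h and Atp5o have a share over 50% at 63.2 and 95.5.

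The 3 rows that match by symbol only had a median log2 ratio of -0.07, farther from 0 than the median of any complex. Cox4nb, now named Emc8, encodes a subunit of an endoplasmic reticulum membrane complex, lies next to Cox4i1 and was at 6.20 and 6.33. Atp5s, now Dmac2l, was at 3.08 and 2.88. Atp5sl, now Dmac2, an assembly factor of complex I, was at 17.4 and 14.9, with a log2 ratio of -0.22.

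A counting interval that left out 1 was found for 20 of the 79 kept genes, 6 higher and 14 lower in NOD.L7. Over the 10699 kept genes with a transcript length the interval left out 1 for 46.5%, with 27.9% higher and 18.6% lower. Most of these folds were small, such as 0.91 for Ndufs1, 0.95 for Sdhb, 0.94 for Uqcrfs1 and 1.05 for Cox6b1. The interval concerns only the fragments drawn from each pool relative to its mapped total, which was larger in NOD.L7. Ndufs1, for example, had about 3195 (NOD.g7) and 3863 (NOD.L7) fragments at its fold of 0.91.

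The other mitochondrial lists had medians near 0, with fewer of their genes close to it. An absolute log2 ratio within 0.1 was found for 78.5% of the members and 57.9% of all kept genes. The share was 70% for carrier genes, 69.3% for mitochondrial ribosomal protein genes, 65.4% for import genes and 64.4% for assembly factors. It was 52.9% for regulators and 50% for the cytochrome c and coenzyme Q list. At a mean RPKM of at least 10 it was 82.4% for the members and 67.7% for all genes. The lists were not matched for level. The median RPKM in NOD.g7 was 50.6 for the members, 63.9 for carrier, 20.3 for import and 19.6 for mitochondrial ribosomal protein genes. Of 75 kept mitochondrial ribosomal protein genes, which make the subunits encoded by mitochondrial DNA, 0 passed the limit of 0.25. Over all kept genes 13.6% passed, 8.82% upward and 4.74% downward. The median log2 ratio of the 75 was near 0 (0.003), with 38 higher and 37 lower. Of 45 kept assembly factor genes, 0 passed upward and 1 downward, 2900053A13Rik, at 10.7 and 8.68, which shares 71.3% of its words with others. Of 26 import genes, 1 passed upward, Pam16 of the import motor at 0.941 and 1.497, a gene that shares 88.7% of its words with others. Of the same 26, 2 passed downward, the carrier chaperone genes Timm10 at 12.7 and 9.37 and Timm8a1 at 1.25 and 0.847. Timm8a1 is near the limit for keeping a gene and shares 41.0% of its words. Of 10 kept genes for carriers, channels and associated proteins of ATP synthase, none passed, though so short a list would hold few at the share of all genes. The ADP/ATP carrier Slc25a5 was at 168.7 and 166.0.

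Of 17 kept genes for transcription factors and cofactors that drive mitochondrial gene expression, 0 passed 0.25, against 13.6% of all kept genes. At that share a list this short would hold few such genes, so the count says little. Nrf1 was at 11.1 and 11.1, Gabpa at 18.2 and 19.9 and Tfam, the packaging factor of mitochondrial DNA, at 16.3 and 15.1. The nuclear receptor Esrra was at 15.9 and 16.7. Of the PGC-1 coactivators, Ppargc1b was at 3.20 and 3.60, and Ppargc1a was near the floor, at 0.0542 and listed at 0. In the list of cytochrome c, missed subunits and coenzyme Q synthesis, 1 of 14 kept genes passed, also in a short list. It was Coq7, which was lower at 5.40 and 4.27. Cycs, cytochrome c itself, was at 0.536 and 0.418 and shared words with 10 pseudogenes, and the complex I acyl carrier Ndufab1 was at 3.21 and 3.19 with 2 such pseudogenes.

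Markers of several cell types had medians farther from 0 than the respiratory genes, and their part in the values above was not tested. The median log2 ratio was -1.45 over 7 erythroid genes, -0.81 over 8 NK cell genes, -0.26 over 8 B cell genes, 0.01 over 8 T cell genes, 0.32 over 8 neutrophil genes and 0.78 over 8 monocyte and macrophage genes. Their summed levels in NOD.g7 and NOD.L7 were 143.4 and 59.2 for erythroid, 290.0 and 165.8 for NK, 2506 and 2118 for B, 1033 and 1069 for T and 829.1 and 1089 for neutrophil genes. No matched marker was at 0 in both libraries. The summed level of the 79 respiratory genes was 4715 (NOD.g7) and 4666 (NOD.L7).

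**Figure D5:**
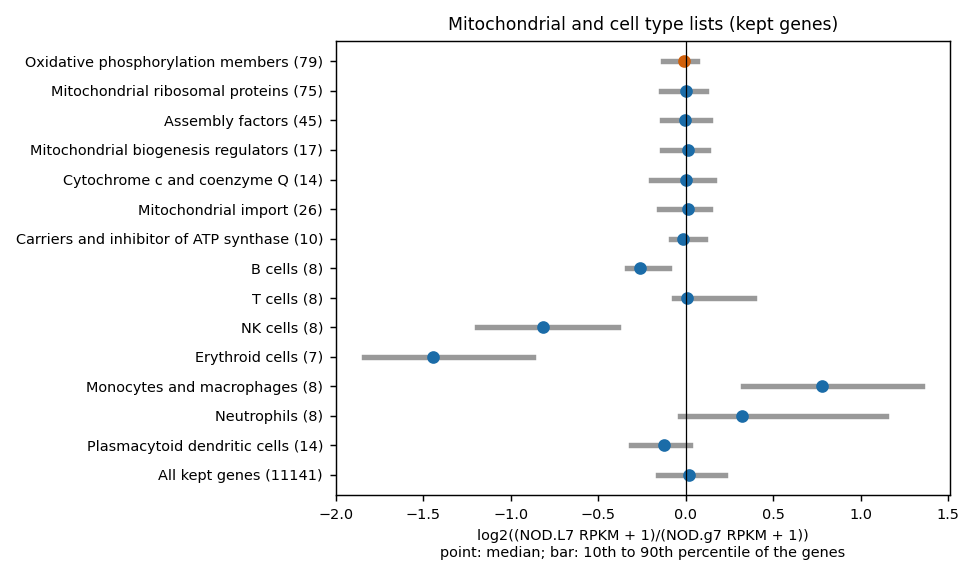
Median log2 ratio (points) and range from the 10th to the 90th percentile of genes (bars) for the 79 kept respiratory genes (orange), other mitochondrial lists, cell type markers and all kept genes, with the number of genes in brackets. The mitochondrial lists have medians between -0.02 and 0.01, and the cell type lists run from -1.45 to 0.78.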

How the data were processed

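Spleen RNA was extracted on RNeasy columns and made into TruSeq RNA libraries, per the labels' protocols. The authors deposited 1 table with an RPKM value per gene and library. Per the submitters' processing notes, CASAVA 1.8.2, SAMtools 0.1.18 and mouse build mm9 were used. The column named NOD.LC7 was taken as NOD.L7 and NOD as NOD.g7. Not given in the sources used here were aligner settings, gene models, strand handling and the treatment of multiply mapped reads.

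From the steps of low RPKM values of single-exon genes, the table rests on 9.13 Gb (NOD.g7) and 12.1 Gb (NOD.L7) of mapped sequence. All 100 and 103 values used were whole multiples of a base within 0.15. Fragments were approximated as 200 bases each over the principal GENCODE M21 transcript, and intervals cover counting error only. No test between genotypes was possible. Members and lists were chosen with earlier results of these data known. Older symbols were matched through RefSeq. Named genes were, per complex, the 3 highest and 2 lowest levels and the 2 highest and 2 lowest log2 ratios, all genes past 0.25, complex II, isoform pairs, rows under an RPKM of 1, symbol-only matches and Cyc1, Ndufab1, Cycs, Ppargc1a, Ppargc1b, Nrf1, Gabpa, Tfam and Esrra. Others are named as examples, chosen after their values were seen. Calculations used Python 3.11.15 with pandas 2.3.3 and scipy 1.17.1 and were tested on simulated data. The values of 1 member are not reported here.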

Additional observations from a re-analysis of the deposited data

How the results depend on the processing

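With 1 library per genotype no replicate could be left out, and no setting shows how values vary between mice. No paired analysis was possible because neither genotype has a further library. The count past an absolute log2 ratio of 1 was 0 as given, and 1 (Cox6a2) with a pseudocount of 0.1 or 0.5. The count past 0.25 was 3 as given, 5 with a pseudocount of 0.1 and 5 with 0.5, 4 with no filter, 1 at a filter of RPKM 5 and 1 without tissue isoforms. The genes added by the smaller pseudocounts were Atp5g2 (-0.34 and -0.28) and Ndufa12 (0.26 and 0.26) at 0.1 and 0.5. With no filter the added gene was Ndufs5, whose row cannot be read as a level. The gene left was Cox6a2 at a filter of RPKM 5 and Ndufb4 without tissue isoforms. The number of members higher in NOD.L7 fell from 35 to 23 with the TMM factor. The medians of the group and of each complex kept their sign under all 10 alternatives, but all are within 0.06 of 0. Leaving out genes that share sequence was chosen after the data were seen. The same check against a whole genome was not run, since no genome sequence was used here. Depth limits the genes near an RPKM of 1, such as Cox7a1.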
